A study of Zea mays with 2 samples.

Results

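The loci described here lie in the first 10 Mb of chromosome 4 of maize. They were chosen by position, as every locus on chromosome 4 with a start below 10000000 in the deposited tables, and they number 296 of 44119 loci, at 250 distinct positions. Within this region, 2 clusters of abundant loci were set beside all other loci. The first cluster ran from 5075029 to 5172399 and the second from 5490429 to 5591069, with 318 kb between them. The limits of both clusters were drawn where levels were high and ratios already known, so levels and ratios of the clusters are given as descriptions and without a test.

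RNA came from endosperm of kernels at 15 days after pollination, from a plant group labelled wild type and from one labelled opaque2. Each genotype had 1 library of values, in FPKM, a fragment count scaled by transcript length and library size. The sources used here do not name the opaque2 allele, the inbred background or the number of ears or kernels behind each value. The design text speaks of triplicates, yet a single value per locus and genotype was analysed, so differences carry no replicate check and no p-value. The loci carry a position and no gene name, and therefore the endosperm label could not be checked against marker genes.

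Opaque2 is a bZIP transcription factor of the developing endosperm that binds the promoters of storage protein genes and of genes of amino acid and starch metabolism. Zeins are the prolamin storage proteins of the maize kernel, and kernels of opaque2 mutants hold less of them, above all of the alpha class. Alpha zein genes lack introns and occur as tandem arrays of near-identical copies, and some of these arrays are known from the short arm of chromosome 4. Of the 296 loci, 0 shared start and end with a gene of the reference table, whose assembly need not be the one behind the files, so whether any locus here belongs to a zein array was not analysed. No sequence of the loci is shown for the same reason.

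Of the 296 loci, 103 reached 5 FPKM in at least 1 library, at 87 positions, and 193 stayed below that floor. The loci below it summed to 180 FPKM in wild type and 185 FPKM in opaque2. Of the 263 loci outside the clusters, whatever their level, 29 were listed at 0 in wild type and 7 in opaque2. Over all 44119 loci these counts were 4885 and 1384, so the imbalance was not particular to this region. Ratios below are log2 ratios of opaque2 over wild type with 1 FPKM added to both values, which pulls the ratio of weakly expressed loci toward 0. A locus is called higher or lower in opaque2 when this ratio reached 2-fold and the higher library had at least 5 FPKM. Over the whole genome 7.91% of 15833 loci met this rule, 3.84% lower and 4.07% higher in opaque2. In the region 20 of the 103 loci were lower and 3 higher, or 22.3% together, but the clusters were named for these values and the excess is not a result about the region. Without the 14 loci of the first cluster, 9 of the remaining 89 met the rule, or 10.1%. Of these 9, 5 were in the second cluster, also drawn with ratios known. Without both clusters 4 of 79 met it, or 5.06%.

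Most of the changed loci lay in the megabase of both clusters, which were drawn with ratios known, so this is a description. Between 5 and 6 Mb, 19 of 38 loci past the floor changed, and all 19 were members of the 2 clusters. This megabase summed to 28857 FPKM in wild type and 11841 FPKM in opaque2 over all its loci. The other 9 megabases held at most 1 changed locus each, 4 in all. The clusters made up 78.3% of the FPKM of the region's loci past the floor in opaque2 and 89.9% in wild type. Over the region these loci summed to 31531 FPKM in wild type and 14473 FPKM in opaque2, a log2 ratio of −1.12. In bulk RNA, fewer cells that express these loci and less of their RNA per cell cannot be told apart.

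**Figure D1:**
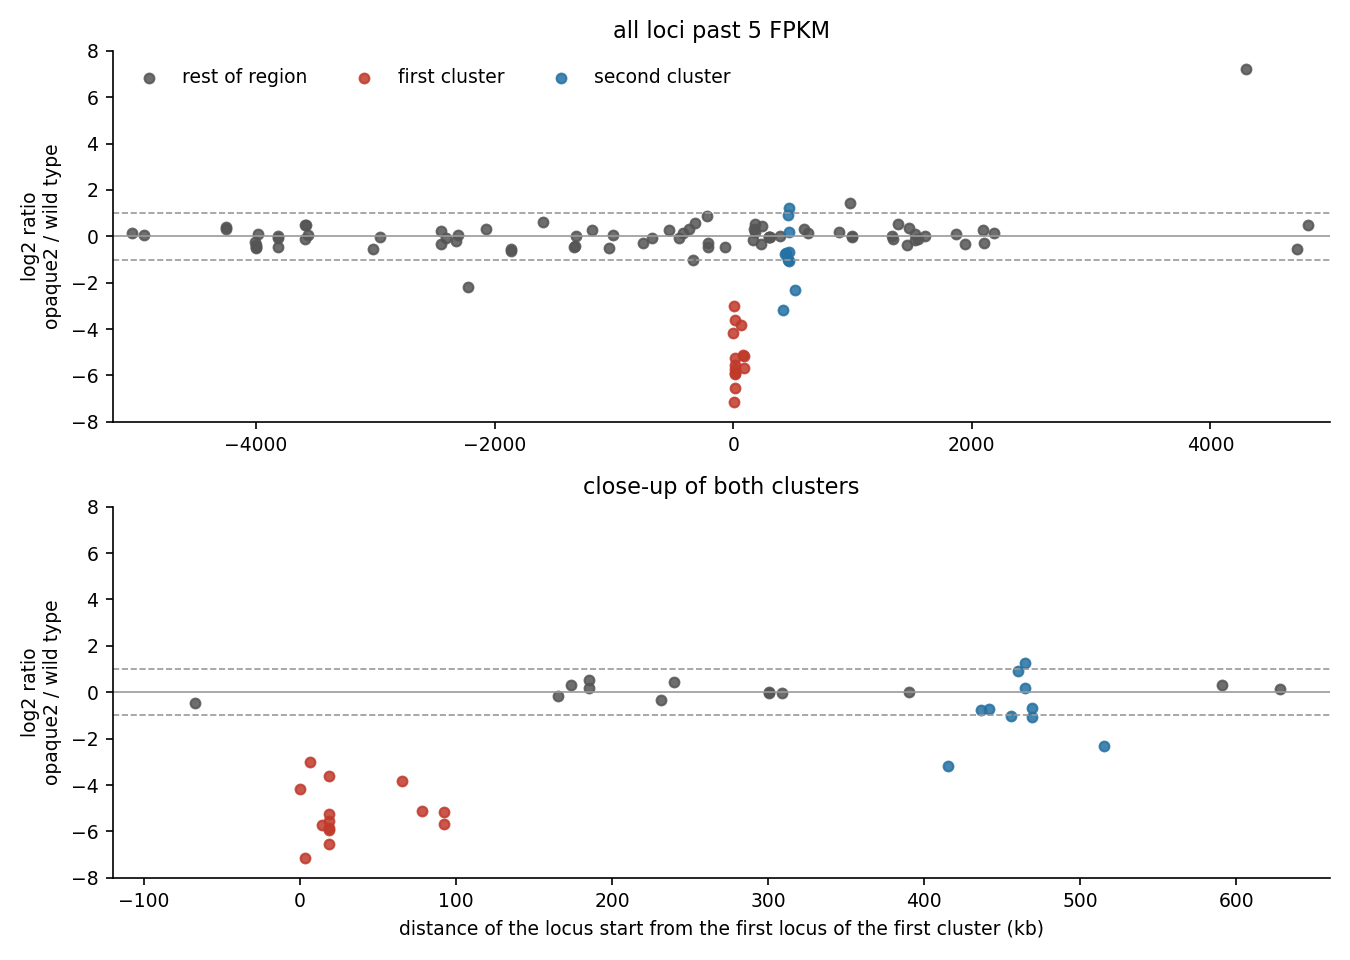
Log2 ratio of opaque2 over wild type (vertical axis) against the distance of each locus start from the start of the first cluster in kb (horizontal axis), for the 103 loci past 5 FPKM (above) and for the stretch around both clusters (below). Dashed lines mark 2-fold, and loci listed at 0 in a library are drawn at the ratio that the added 1 FPKM gives. The 14 loci of the first cluster all lie at −3.02 or lower, and the 10 loci between the clusters lie between −0.32 and 0.51.

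The first cluster was lower in opaque2 at every one of its 14 loci past the floor. In wild type 10 of these loci reached 100 FPKM and 3 reached 1000 FPKM, whereas in opaque2 only 1 reached 100 FPKM and 0 reached 1000 FPKM. In wild type 9 of the 14 loci were among the top percentile of that library, above the 99th, against 1 in opaque2. All 14 were also lower by 4-fold, a rule met by 3.23% of loci over the genome, 1.19% lower and 2.03% higher. As the cluster was named with its ratios known, this is a description and not an excess found in it. By opaque2 level, the locus ranked 7 of the 14 had 6.41 FPKM and the one ranked 8 had 4.36 FPKM. Those from rank 8 on reached the floor only in wild type, so they could not have been called higher. The 4 loci of the cluster below the floor were not called. For 3 loci the opaque2 library was listed at 0, which can be a failed estimate, and no fold is given for them. In the other 11 the wild type level was between 12.2 and 604 times the opaque2 level, with a median of 52.7 times.

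From its left edge, the cluster opened with 4 loci of about 1 kb each. The locus at 5075029 to 5076097 was listed at 0 in opaque2 and had 16.8 FPKM in wild type. The next, at 5078343 to 5079419, was listed at 0 in opaque2 and had 139 FPKM in wild type. The next, at 5081480 to 5082435, was listed at 0 in opaque2 and had 7.14 FPKM in wild type. This was the lowest wild type level among the cluster's loci past the floor. These 3 neighbouring loci were the only ones of the cluster past the floor with 0 listed in opaque2. A 0 can be a failed estimate, and a locus farther right had only 0.0657 FPKM in opaque2. The zeros are thus not read as a trait of this edge. The last of the 4, at 5089369 to 5090254, had 80.2 FPKM in wild type and 0.519 FPKM in opaque2 (log2 ratio −5.74). A small locus between them, at 5088206 to 5088510, stayed below the floor with 0.433 FPKM in opaque2 and 0 listed in wild type.

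The main part of the cluster was a span of 43930 bp, at 5093411 to 5137340, to which the tables assign 8 loci. No other nuclear position held as many loci, and the next held 7. Loci that share a position belong to overlapping models and may be near copies, so the division of reads among them is uncertain, and their transcript lengths are not given by the span. Its most abundant locus had 5859 FPKM in wild type and 480 FPKM in opaque2, with a log2 ratio of −3.61. The second had 1240 FPKM in wild type and 25.7 FPKM in opaque2 (log2 ratio −5.54). The one ranked next had 689 FPKM in wild type and 6.41 FPKM in opaque2 (log2 ratio −6.54). As plain folds with nothing added, the wild type level was 12.2 times the opaque2 level for the dominant locus, 48.3 times for the second and 107 times for this one.

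Further loci of the span were weaker in both libraries. The fourth had 330 FPKM in wild type and 4.36 FPKM in opaque2 (log2 ratio −5.95), and the fifth had 220 FPKM in wild type and 2.77 FPKM in opaque2 (log2 ratio −5.87). The sixth had 39.7 FPKM in wild type and 0.0657 FPKM in opaque2 (log2 ratio −5.25), and its plain fold of 604 was the highest at this position although its log2 ratio was not the lowest, because the added 1 FPKM weighs most at such a level. The other 2 loci of the span did not reach the floor, with 4.06 FPKM in wild type and 1.80 FPKM in opaque2 for the stronger of them and 2.96 and 1.13 FPKM for the weaker. Ratios of the 6 loci past the floor spread over 2.93 on the log2 scale. Their sum was 8378 FPKM in wild type and 519 FPKM in opaque2, the former 16.1 times the latter (log2 ratio −4.01).

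To the right of this span the cluster held 4 more loci past the floor at 3 positions. The locus at 5140555 to 5141628 had 439 FPKM in wild type and 30.4 FPKM in opaque2 (log2 ratio −3.81). The locus at 5153163 to 5154479 had 266 FPKM in wild type and 6.61 FPKM in opaque2 (log2 ratio −5.14). At 5167197 to 5172399 a pair of loci shared 5203 bp. The stronger of the pair had 3531 FPKM in wild type and 67.0 FPKM in opaque2 (log2 ratio −5.70), and the weaker had 904 FPKM in wild type and 24.1 FPKM in opaque2 (log2 ratio −5.17). In wild type this pair was the second largest source of the cluster's signal, with 32.2% of its summed FPKM, and in opaque2 its share was 14.1%. One further locus, at 5149611 to 5150695, stayed below the floor, with 0.669 FPKM in wild type and 0.245 FPKM in opaque2.

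**Figure D2:**
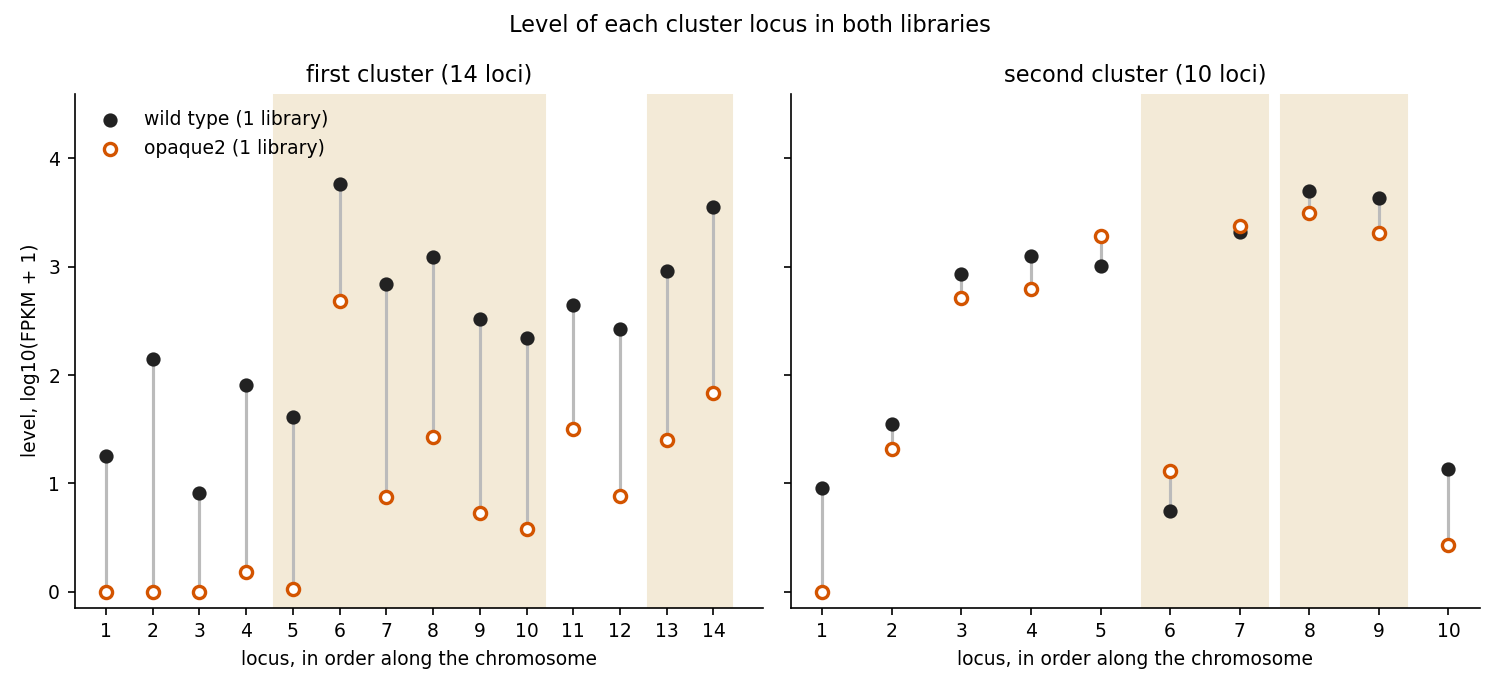
Level of each locus past 5 FPKM as log10(FPKM + 1) (vertical axis) in wild type (filled) and opaque2 (open), by order along the chromosome (horizontal axis), with 1 library per genotype; shaded bands join loci that share a position. In the first cluster all 14 open points lie below their filled partners, and in the second cluster 7 of 10 do.

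Although levels in opaque2 were lower throughout the first cluster, the order of its loci was similar in both libraries. The locus with 5859 FPKM in wild type ranked first and the locus with 3531 FPKM ranked second in each library. Across the 14 loci Spearman's rho between the levels of both libraries was 0.93, a description over loci that share libraries and in part reads. The top locus held 42.6% of the cluster's summed FPKM in wild type and 74.1% in opaque2. The 43930-bp span held 60.9% in wild type and 80.1% in opaque2. As a whole the cluster summed to 13761 FPKM in wild type and 648 FPKM in opaque2 (log2 ratio −4.41), and without that locus to 7902 and 168 FPKM (log2 ratio −5.55).

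The second cluster had similar levels in wild type but held most of that signal in opaque2 too. Its 10 loci past the floor summed to 14570 FPKM in wild type and 10680 FPKM in opaque2, the former 1.36 times the latter (log2 ratio −0.45). In wild type its sum was 1.06 times that of the first cluster, and in opaque2 it was 16.5 times that of the first. Of its loci 4 were lower and 1 higher by the 2-fold rule, and the median ratio was −0.73. Levels of 1000 FPKM or more were found for 5 of its loci in wild type and for 4 in opaque2. The difference of the clusters in ratio has no test, since it was used to name them.

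The abundant members of the second cluster differed in both directions. The position at 5544034 to 5556634 held a pair of loci, the first with 4996 FPKM in wild type and 3166 FPKM in opaque2 (log2 ratio −0.66). The other locus of this pair had 4326 FPKM in wild type and 2043 FPKM in opaque2 (log2 ratio −1.08), and was called lower. The pair made up 64.0% of the cluster's summed FPKM in wild type and 48.8% in opaque2. Just to its left, the strong locus at 5539789 to 5540927 had 2074 FPKM in wild type and 2387 FPKM in opaque2 (log2 ratio 0.20). A weaker locus at the same position had 4.52 FPKM in wild type and 12.0 FPKM in opaque2 (log2 ratio 1.24), the only locus of either cluster called higher. Since it shares its position with a locus of 198 times its level in opaque2, the split of reads between them is uncertain.

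The locus at 5535144 to 5536416 had 1017 FPKM in wild type and 1914 FPKM in opaque2. Its log2 ratio of 0.91 fell just short of 2-fold, and it held 6.98% of the cluster's sum in wild type and 17.9% in opaque2. In the opposite direction, the locus at 5530750 to 5531969 had 1251 FPKM in wild type and 618 FPKM in opaque2, and with a log2 ratio of −1.02 it was just past the rule. When the median ratio of all loci was set to 0 its ratio was −0.98 and the call was lost. The locus at 5516523 to 5518566 had 848 FPKM in wild type and 519 FPKM in opaque2 (log2 ratio −0.71). Neighbouring loci of like level thus differed in sign, within a stretch of 40.1 kb. Ratios so close to 2-fold rest on 1 library per genotype, and no spread between samples is known for them.

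**Figure D3:**
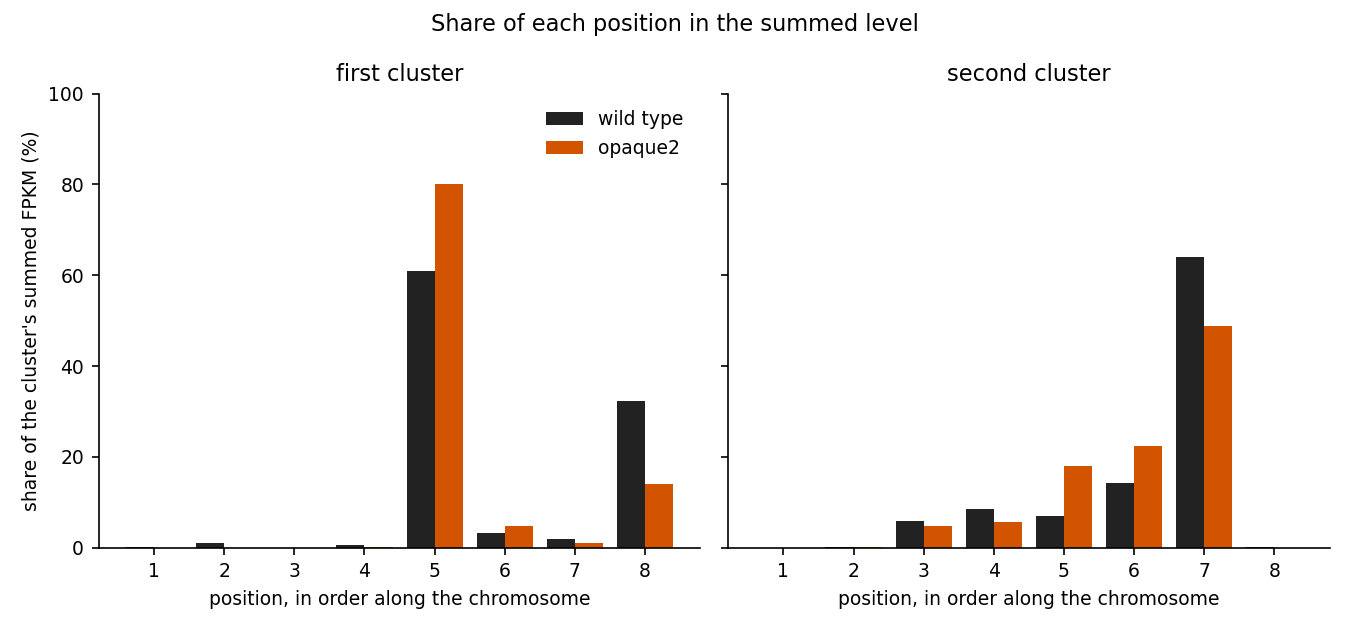
Share of each position in the summed FPKM of its cluster in percent (vertical axis), for the 8 positions of each cluster in order along the chromosome (horizontal axis), in wild type and opaque2. In the first cluster the fifth position held 60.9% in wild type and 80.1% in opaque2, and in the second cluster the seventh held 64.0% and 48.8%.

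Weak loci stood at both edges of the second cluster. The left one, at 5490429 to 5491180, was listed at 0 in opaque2 and had 8.005 FPKM in wild type, and the right one, at 5590104 to 5591069, had 12.5 FPKM in wild type and 1.69 FPKM in opaque2 (log2 ratio −2.33). These were the lowest ratios of the cluster and the only 2 lower by 4-fold. A locus of 267 bp at 5511245 to 5511511 had 34.1 FPKM in wild type and 19.9 FPKM in opaque2 (log2 ratio −0.74). The other 5 loci of the cluster did not reach the floor and summed to 9.13 FPKM in wild type and 7.49 FPKM in opaque2. Of these, 3 shared a position with a locus past 100 FPKM in both libraries. Across the 10 loci past the floor, Spearman's rho of the levels in both libraries was 0.94, again as a description.

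Several features that the choice of the clusters did not use were shared by both. Of their 16 positions with a locus past the floor, 11 spanned between 700 and 1400 bp, limits set after the spans were seen. Outside the clusters 7 of 71 such positions of the region had such a span, or 9.86%, and over the genome 9.06% did. Since FPKM is scaled by transcript length, level and span may be related: among positions of the genome outside the clusters with a locus of 100 FPKM or more, 11.9% had a span within these limits, and among those in the clusters 6 of 10 did. The median span was 1076 bp in the first cluster, 1180 bp in the second and 3645 bp in the other positions of the region. Loci at shared positions were also frequent, with 15 of 24 loci past the floor in the clusters, or 62.5%, against 31.6% in the rest of the region and 24.1% over the genome. In the first cluster 6 of the 8 such loci lay at the 43930-bp span, so its count rests mainly on that position. Of the genome's loci of 100 FPKM or more outside the clusters, 22.9% were at shared positions, against 13 of 16 in the clusters. The loci of 100 FPKM or more extended over 94.1 kb in the first cluster and 40.1 kb in the second. Between neighbouring positions past the floor the spacing differed from gap to gap, from 2.06 to 12.7 kb in the first cluster and from 3.11 to 33.5 kb in the second.

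Between the clusters, 10 loci past the floor lay at 5240153 to 5466543, and 0 of them changed. Their summed level was 268 FPKM in wild type and 303 FPKM in opaque2, with a median log2 ratio of −0.01. The strongest, at 5248487 to 5256934, had 138 FPKM in wild type and 170 FPKM in opaque2 (log2 ratio 0.30). The last locus before the first cluster, at 5007502 to 5013114, had 179 FPKM in wild type and 132 FPKM in opaque2 (log2 ratio −0.44). The first one after the second cluster, at 5666220 to 5677820, had 8.72 FPKM in wild type and 11.01 FPKM in opaque2 (log2 ratio 0.31). Among loci past the floor, the nearest to the first cluster lay 61.9 kb to its left and 67.8 kb to its right. The limits of the cluster were drawn with ratios known, so that its low ratios end there is not a result.

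Outside both clusters, 79 loci past the floor differed little between the genotypes. Their log2 ratios had a median of 0.00 with quartiles at −0.30 and 0.27. Within 1.5-fold lay 91.1% of them, against 84.8% on the rest of chromosome 4 and 82.6% over the genome. The clusters had been set aside with ratios known, and with them the share in the region was 70.9%. Of the 79 loci 4 changed, or 5.06%. That share was near the 5.70% of the 1491 loci past the floor on the rest of chromosome 4 and below the 7.91% of the genome. The 79 loci summed to 3199 FPKM in wild type and 3145 FPKM in opaque2 (log2 ratio −0.02). Over the 78 of them above 0 in both libraries this log2 ratio of sums was −0.09. The 46 loci before the first cluster had a median ratio of −0.06 and the 23 loci after the second cluster a median of 0.11. Levels of these 79 loci were ordinary for the genome, with a median of 14.3 FPKM in wild type and 16.0 FPKM in opaque2, against 13.8 and 13.6 FPKM over all loci past the floor.

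**Figure D4:**
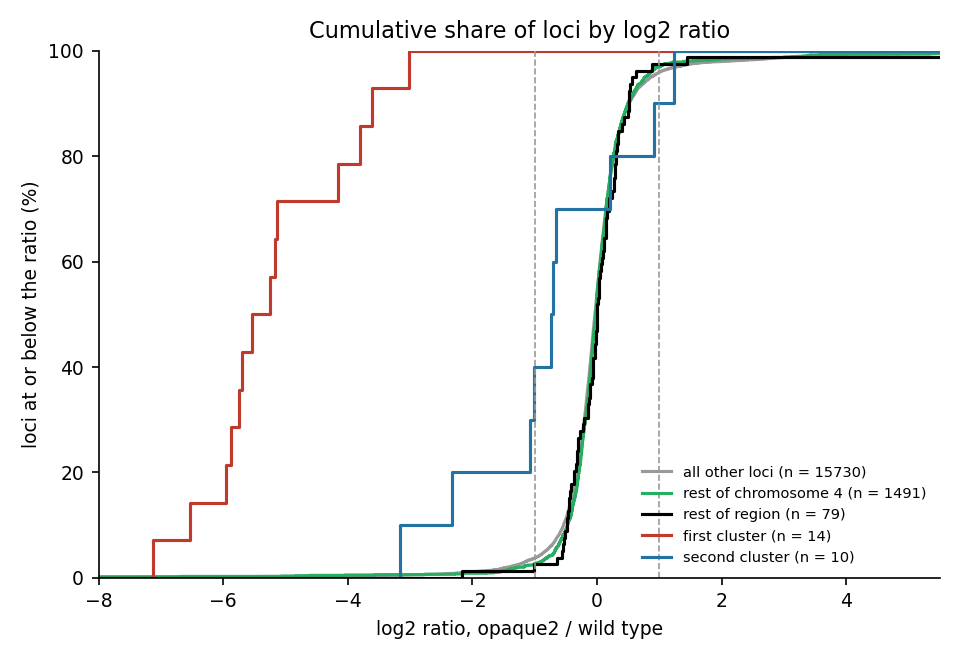
Cumulative percentage of loci past 5 FPKM (vertical axis) by log2 ratio of opaque2 over wild type (horizontal axis), for each cluster, the rest of the region, the rest of chromosome 4 and all other loci. The curve of the 79 loci in the rest of the region runs along that of the 15730 other loci, with 91.1% of them within 1.5-fold, whereas the first cluster lies wholly at −3.02 or lower.

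The most abundant locus outside the clusters, at 1258805 to 1260587, had 1009 FPKM in wild type and 731 FPKM in opaque2 (log2 ratio −0.46). A second locus at the same position had 152 FPKM in wild type and 145 FPKM in opaque2, and the weakest there had 12.1 and 12.4 FPKM. Loci at this position thus differed less in ratio than those of the 43930-bp span. The locus at 4753565 to 4755320 had 175 FPKM in wild type and 257 FPKM in opaque2 (log2 ratio 0.55). The locus at 7172367 to 7173014 had 132 FPKM in wild type and 160 FPKM in opaque2 (log2 ratio 0.28). The remaining loci of this rank were the one at 32395 to 63643, with 96.5 FPKM in wild type and 108 FPKM in opaque2, the one at 1508758 to 1509325, with 81.3 and 84.7 FPKM, and the one at 2754383 to 2762093, with 75.5 and 65.0 FPKM. Among the 10 loci of highest mean level outside the clusters, 9 had ratios between −0.46 and 0.55. At the 7 positions outside the clusters with several loci past the floor, ratios within a position differed by at most 0.50.

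The exception among those 10 was a short locus of 114 bp at 9371608 to 9371721, with 148 FPKM in opaque2 and 0 listed in wild type. The nearest loci past the floor lay 2106 kb before it and 428 kb after it. Of the other 3 changed loci outside the clusters, the one at 2852277 to 2855830 had 19.7 FPKM in wild type and 3.60 FPKM in opaque2 (log2 ratio −2.17). The locus at 4735918 to 4737880 had 5.84 FPKM in wild type and 2.40 FPKM in opaque2 (log2 ratio −1.01), and was the closest of all to the 2-fold limit from inside. With the median ratio of all loci set to 0 its ratio was −0.97, and it was no longer called. The locus at 6053472 to 6054052 had 2.20 FPKM in wild type and 7.71 FPKM in opaque2 (log2 ratio 1.44). These 4 loci lay apart from each other and from the clusters, 2 lower and 2 higher.

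At the limits of the selection, the last locus past the floor inside the region, at 9889419 to 9895586, had 33.3 FPKM in wild type and 47.7 FPKM in opaque2. The first one outside, a locus of 86 bp at 10208134 to 10208219, had 3334 FPKM in opaque2 and was listed at 0 in wild type. At the floor, the lowest locus kept, at 4538259 to 4541202, had 5.001 FPKM in its higher library, opaque2, and the highest one left out, at 3046687 to 3049508, had 4.995 FPKM there. On the other side of the 2-fold limit, the locus at 5535144 described above came closest.

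Groups of abundant loci as dense as these were few in the genome. When nuclear loci of 100 FPKM or more in either library were joined across gaps of at most 50 kb between starts, a limit chosen after the data were seen, 7 groups had at least 4 positions. Both clusters had been named for their abundance with ratios known, so their place among these groups is a description. In the first cluster 10 loci reached 100 FPKM in wild type and 1 did in opaque2. In wild type the chromosome 4 groups had the highest sums, 14511 FPKM for the abundant loci of the second cluster and 13617 FPKM for those of the first. The next was a group on chromosome 2 at 71086139 to 71139987, with 10388 FPKM in wild type and 392 FPKM in opaque2 (log2 ratio −4.73). Its difference rested on 1 locus listed at 0 in opaque2: the other 3 loci summed to 383 FPKM in wild type and 392 FPKM in opaque2 (log2 ratio 0.03). In the first cluster 1 of the 10 abundant loci was listed at 0 in opaque2, and the sums of the other 9 had a log2 ratio of −4.38. The other 4 groups had log2 ratios of sums between −1.71 and 0.73, and between −0.38 and −0.10 over loci above 0 in both libraries, a filter added after the data were seen. With a gap of at most 20 kb, 3 groups remained past the limit of 4 positions, and the first cluster was not among them, since the starts on either side of the 43930-bp span lie farther apart than that.

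**Figure D5:**
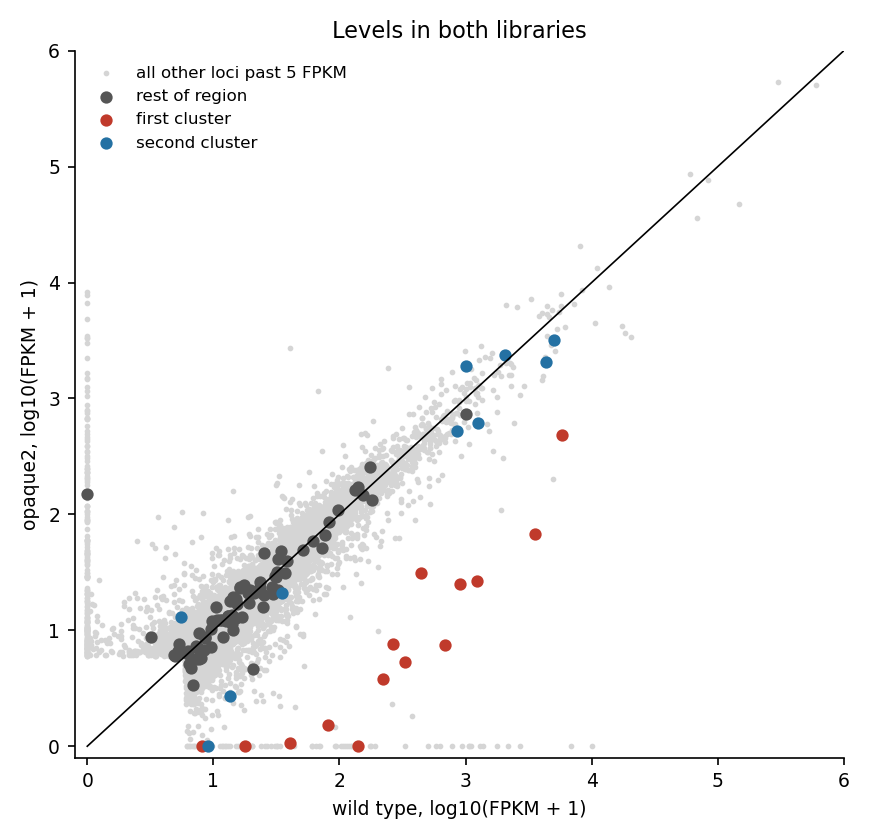
Level in opaque2 (vertical axis) against level in wild type (horizontal axis), both as log10(FPKM + 1), for loci past 5 FPKM; the line marks equal levels. The 14 loci of the first cluster lie below the line of equal levels, and the 79 loci outside the clusters follow the line except for a few, among them 1 locus listed at 0 in wild type.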

How the data were processed

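The deposited tables hold FPKM, per the file headers, with 1 value for each locus and genotype. Bowtie 0.12.2 is named in the submitters' processing notes. What it was used for, how FPKM were estimated, the build, the annotation and the treatment of the triplicates stay not given in the sources used here. Depth is thus unknown, and no counting interval can be given. Starts count from 0 (48 of 84 mitochondrial starts equal a reference start after adding 1, and 0 without it), so 1 was added.

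Log2 ratios used a pseudocount of 1 FPKM. A change meant at least 2-fold with 5 FPKM in the higher library. Sums cover loci past the floor unless stated. With 1 library per genotype no test was made. The region, clusters and rules were chosen with earlier results of these data known. Loci named were all cluster loci past the floor and, outside, the 10 of highest mean level, all changed loci and those next to a limit. A few others, below the floor or beside a named locus, were added after their values were seen. Computations ran in Python 3.11.15 with pandas 2.3.3, NumPy 2.4.6 and SciPy 1.17.1, and plots in Matplotlib 3.10.9.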

Additional observations from a re-analysis of the deposited data

How the results depend on the processing

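Across 183 recomputations of 14 counts, medians and ratios of sums, 158 kept their value within 1.5-fold (counts within 1.5 times). None of the medians and ratios of sums of at least 2-fold in size changed sign. Some of those near 0 did. The log2 ratio of sums of the rest went from −0.02 to 0.14 without its highest locus. The median of the region went from −0.07 to 0.002 without a floor. Centring and equal totals moved ratios by at most 0.05, but centring ended 2 calls, leaving 21 changed loci in the region, 4 of them in the second cluster and 3 in the rest. With totals made equal without the 6 highest loci, 106 loci of the region passed the floor, 18 lower and 4 higher. The second cluster then had 4 changed. Of the 14 loci of the first cluster, each that a setting kept stayed lower, while the loci that a floor of 1 FPKM or none added to it were not called. With the loci of each position summed it had 8 lower positions and a median of −4.65, the second cluster had 3 changed, and the region 13 lower. Its log2 ratio of sums was −5.55 without its highest locus and −5.38 without the position shared by 8 loci, an alternative chosen after seeing the data that left 8 loci lower. Its median was −6.19 with a pseudocount of 0.1 and −4.70 with 5. With a floor of 20 FPKM the region had 15 changed and 1 higher, the second cluster 2 and the rest 1 changed. With a floor of 1 FPKM and with none, the region had 8 higher and the rest 11 changed. With a pseudocount of 5 the region had 1 higher and the rest 2 changed. At 1.5-fold the region had 6 higher, the second cluster 9 and the rest 7 changed, and at 4-fold these were 1, 2 and 2. Over loci above 0 in both libraries, a filter added after seeing the data, the chromosome 2 group from 71086139 had a log2 ratio of sums of 0.031. The settings differ in the loci they keep or join, in the limit of a change or in the value added before the ratio. No paired analysis was possible because there is 1 library per genotype, and for the same reason no library could be left out. Without counts, the limit that depth sets on weak loci was not measured.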
